A study of Mus musculus with 14 samples.

Results

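The core identity genes of the Lgr5-positive intestinal stem cell were followed in 14 RNA sequencing libraries: Lgr5, Ascl2, Olfm4, Smoc2, Rgmb, Scn2b, Msi1, Tnfrsf19, Cdca7 and Slc12a2. These 10 of the 55335 genes in each count table were taken by symbol, and each symbol belonged to a single Ensembl gene. The series title links chronic stress to ageing of intestinal stem cells. Cells were sorted by flow cytometry for EGFP read from the Lgr5 locus, so the level of Lgr5 itself is tied to the way the cells were chosen. In the first experiment all mice carried Lgr5CreERT2-IRES-GFP and Chrm3flox/flox, and the Cre recombinase acts only in cells that express Lgr5. KO mice received tamoxifen (TAM) and WT mice received vehicle, over 3 days before the ES procedure, an abbreviation that the labels leave undefined. The groups were KO ES, KO NT, WT ES and WT NT with 2 libraries each, where NT marks the mice without ES. Deletion of Chrm3, the M3 muscarinic acetylcholine receptor, and exposure to tamoxifen cannot be told apart. In the second experiment the mice carried Lgr5CreERT2-IRES-GFP and were 18 months (old) or 2 months (young) of age, with 3 libraries each.

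Lgr5-positive cells sit at the crypt base between Paneth cells, divide often and supply all lineages of the intestinal epithelium. Their state depends on Wnt signalling: LGR5 binds R-spondins, which keeps Wnt receptors at the cell surface, and ASCL2 is a transcription factor that works with this input to hold the stem cell program. Most of the other genes were first used as markers of these cells, and only some of them have a known role in keeping the stem cell state.

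Total counts lay between 26.7 M and 36.9 M per library, and all 10 genes passed the filter on low counts in both tables. The labels do not say that libraries came from separate animals, so each p-value reflects only how far these libraries scatter. Chrm3 was listed at 8.13 and 6.04 CPM, the count relative to the scaled library total, in KO ES and 9.24 and 7.71 CPM in KO NT, against 11.6 and 10.9 CPM in WT ES and 11.2 and 13.0 CPM in WT NT. The KO to WT log2 fold change of Chrm3 was -0.68 ± 0.17 under ES (edgeR adjusted p = 0.0363) and -0.50 ± 0.16 in NT (adjusted p = 0.119). The deleted exons are not named in the labels, and counts from undeleted exons and from cells without the deletion cannot be told apart. The 2 KO NT libraries stood further apart than any other pair of the first experiment: a chi-square of their counts gave 25.8 per degree of freedom, against 3.59 in WT NT, 13.5 in WT ES and 15 in KO ES. Replicate 1 of KO NT was the higher of the pair for all 10 genes, and mitochondrial genes took 8.74% of counts in replicate 2, against 6.12% to 7.53% in the other 13 libraries. Stromal and endothelial markers summed to 2.84 to 9.25 CPM, and 5 to 7 of the 9 markers were at 0 in each library.

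The genes covered a wide range of levels. To compare genes, levels were divided by the merged exon length and given as CPM per kilobase, as medians over the 14 libraries. Olfm4, which encodes the secreted glycoprotein olfactomedin-4, led with 3418 CPM per kilobase and took between 0.799% and 1.29% of all counts. Its exons share 153 bases with Gm6999 on the same strand, so part of its count is uncertain. Slc12a2, the sodium, potassium and chloride cotransporter NKCC1, followed at 189 CPM per kilobase, and Cdca7, a DNA-binding partner of the chromatin remodeller HELLS, at 108 CPM per kilobase. Smoc2, a secreted matricellular protein, stood at 41.1 CPM per kilobase. Rgmb, a membrane-anchored BMP co-receptor, stood at 33.1 CPM per kilobase. Below these came Ascl2 at 18.2, Scn2b at 15.3, Msi1 at 12.0, Lgr5 at 9.68 and Tnfrsf19 at 7.21 CPM per kilobase. Lgr5, the gene that marks the cells, was thus among the lowest of the 10 per kilobase. That rank depends on its merged exon length of 10.3 kilobases, which need not be the length of the expressed transcript. Before division by length, its median of 99.3 CPM was above those of Scn2b, Msi1, Tnfrsf19 and Ascl2.

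Variation between libraries also differed between genes. The highest library exceeded the lowest by 2.14-fold for Scn2b, a beta subunit of voltage-gated sodium channels, and by 2.02-fold for Ascl2, on the CPM scale. Smoc2 varied least, with a ratio of 1.21. These ratios run over both tables, which were scaled separately.

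**Figure D1:**
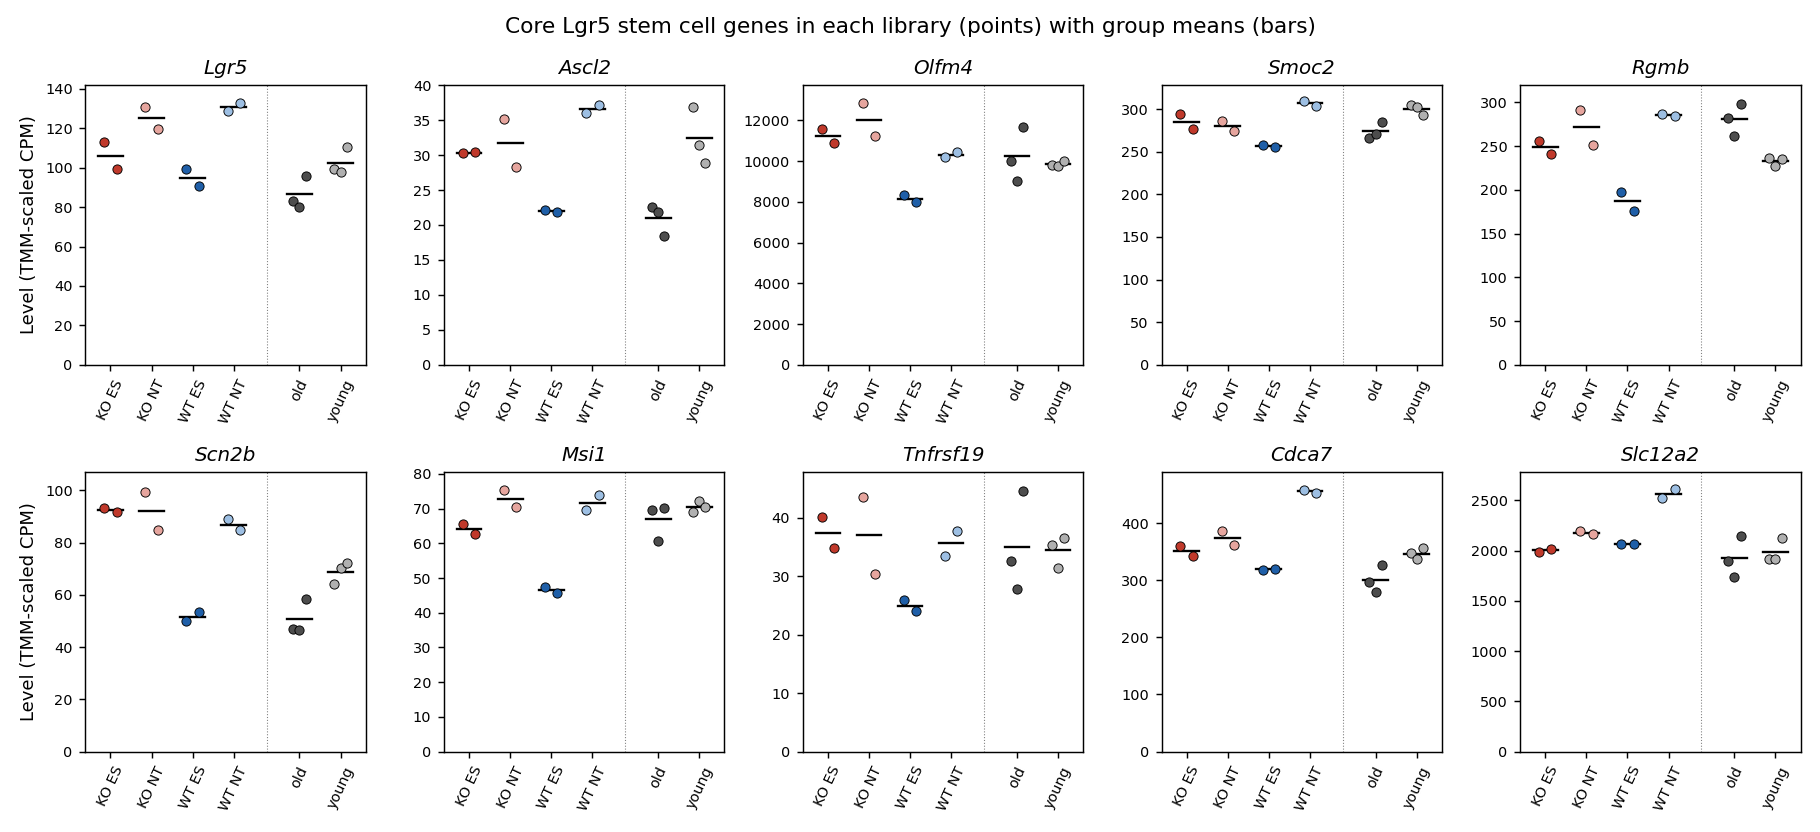
Level of each gene in every library, in CPM after scaling by trimmed mean of M-values (TMM). Points are libraries, horizontal bars are group means, and the groups run KO ES, KO NT, WT ES, WT NT, old and young; for 9 of the 10 genes WT ES has the lowest mean of the 4 groups of the first experiment.

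RefSeq promoter windows of 300 bases around the gene start (build GRCm38.p6) were matched for 6 of the 10 genes, Ascl2, Olfm4, Rgmb, Scn2b, Tnfrsf19 and Cdca7. Where a gene had several listed starts, as Rgmb with 3, the one nearest the start of its longest coding transcript in GENCODE was used. Shown are the windows of the 3 genes that passed the test in both WT mice with ES and old mice: Ascl2 at chr7:142969215-142969514 (minus strand), Scn2b at chr9:45117626-45117925 (plus strand) and Rgmb at chr17:15826517-15826816 (minus strand). They read 5′ to 3′ on the strand of the gene, with TCF/LEF-type motifs (CTTTGAT or CTTTGAA, and ATCAAAG or TTCAAAG on the other strand) in capitals:
Ascl2: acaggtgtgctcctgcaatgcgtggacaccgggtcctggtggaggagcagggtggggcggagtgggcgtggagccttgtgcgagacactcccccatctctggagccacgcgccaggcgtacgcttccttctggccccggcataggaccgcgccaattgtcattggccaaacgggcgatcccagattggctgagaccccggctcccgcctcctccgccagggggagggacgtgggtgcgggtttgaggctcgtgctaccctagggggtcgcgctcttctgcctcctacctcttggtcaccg
Scn2b: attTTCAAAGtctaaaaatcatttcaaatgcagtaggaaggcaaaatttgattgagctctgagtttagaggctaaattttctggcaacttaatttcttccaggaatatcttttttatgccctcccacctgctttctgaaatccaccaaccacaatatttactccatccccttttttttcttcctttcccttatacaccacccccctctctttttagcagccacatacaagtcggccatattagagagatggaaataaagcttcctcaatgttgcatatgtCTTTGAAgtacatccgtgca
Rgmb: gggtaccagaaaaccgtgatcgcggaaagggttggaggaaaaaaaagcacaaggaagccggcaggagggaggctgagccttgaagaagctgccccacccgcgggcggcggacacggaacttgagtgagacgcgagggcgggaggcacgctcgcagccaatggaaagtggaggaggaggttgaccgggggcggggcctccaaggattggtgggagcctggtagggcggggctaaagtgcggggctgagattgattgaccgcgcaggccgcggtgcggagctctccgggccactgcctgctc
Scn2b held the motif at positions 4 and 281 of its window, on opposite strands. The windows of Ascl2 and Rgmb held neither this motif nor the E-box CAGCTG, a sequence that reads the same on both strands. Of all 32851 windows in the table, 8.65% held a TCF/LEF-type motif and 16.3% held CAGCTG. Tnfrsf19 had a listed start that was not used, at chr14:61037938-61038237, whose window held 1 match to each motif. No other window of the 6 genes held either. A match or its lack describes only the letters of these windows.

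The gene bodies, in GENCODE release M21 on GRCm38, lie on 8 different chromosomes. Lgr5 is at chr10:115450311-115587780, Ascl2 at chr7:142966829-142969264 and Olfm4 at chr14:79984081-80023139. Smoc2 (chr17:14279506-14404790) and Rgmb (chr17:15803188-15831039) share a chromosome. Scn2b is at chr9:45117782-45130070, Msi1 at chr5:115429599-115455698, Tnfrsf19 at chr14:60963875-61046490, Cdca7 at chr2:72476159-72486893 and Slc12a2 at chr18:57878678-57946821.

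In WT mice, the core genes were lower with ES. With edgeR's quasi-likelihood test, 9 of the 10 genes fell at a Benjamini-Hochberg adjusted p under 0.05, none rose, and the WT ES and WT NT libraries overlapped for none of the 10. Separation alone says little with 2 libraries per group: 5 of the 9 lymphocyte markers also did not overlap, with 0 called. The share of all tested genes without overlap was not counted in any comparison. Among all 17364 genes tested, 3.48% were called in either direction, 1.39% lower and 2.1% higher. The median log2 fold change was -0.51 over the 10 genes and -0.00 over all tested genes. The WT ES means of the 9 genes were 59.5% to 83.7% of the WT NT means. In bulk libraries, fewer stem cells in the sorted pool and less RNA per stem cell cannot be told apart.

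Lgr5 stood at 99.1 and 90.8 CPM in the WT ES libraries, against 129 and 133 CPM in the WT NT libraries. Its log2 fold change was -0.46 ± 0.08 (SE; adjusted p = 0.0152), and its WT ES mean was 72.6% of the WT NT mean. Tnfrsf19, a TNF receptor family member also called TROY that is a Wnt target, had 25.9 and 24.0 CPM in WT ES, against 33.5 and 37.8 CPM in WT NT. Both WT ES libraries were below both WT NT libraries, but Tnfrsf19 did not pass (-0.51 ± 0.15, adjusted p = 0.0988). It was the only gene of the 10 that did not.

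Ascl2 had 22.1 and 21.9 CPM in WT ES, against 36.0 and 37.2 CPM in WT NT. This fall, to 60.0% of the WT NT mean, was -0.74 ± 0.10 on the log2 scale (adjusted p = 0.00685). Msi1, an RNA-binding protein that regulates translation, had 47.4 and 45.5 CPM in WT ES, against 69.6 and 73.8 CPM in WT NT. Its change was -0.63 ± 0.07 (adjusted p = 0.00193), and its WT ES mean was 64.8% of the WT NT mean. For both regulators the replicates of a group lay close together and the groups far apart.

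Among secreted products, Olfm4 had 8317 and 7975 CPM in WT ES, against 10219.5 and 10430.0 CPM in WT NT. Smoc2 had 258 and 255 CPM in WT ES, against 310.0 and 303 CPM in WT NT. The changes were -0.34 ± 0.07 for Olfm4 (adjusted p = 0.0335) and -0.26 ± 0.06 for Smoc2 (adjusted p = 0.0380), and these had the largest adjusted p of the 9 calls. Rgmb, at the cell membrane, had 197 and 176 CPM in WT ES, against 286 and 284 CPM in WT NT. It fell by 0.61 on the log2 scale, with an SE of 0.08 (adjusted p = 0.00448).

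Scn2b had 50.0 and 53.4 CPM in WT ES, against 88.9 and 84.8 CPM in WT NT. With -0.75 ± 0.08 (adjusted p = 0.00181) its change was the largest of the 10, and it differed from that of Ascl2 by less than either standard error. Slc12a2 had 2065 and 2064 CPM in WT ES, against 2526 and 2609 CPM in WT NT, a change of -0.31 ± 0.05 (adjusted p = 0.0122). Cdca7 had 318 and 319.8 CPM in WT ES, against 458 and 453 CPM in WT NT, a change of -0.51 ± 0.06 (adjusted p = 0.00181). The pairs of replicates of these genes differed far less than the groups did.

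The number of calls rested on the WT libraries. With either WT ES library left out 4 calls remained, without WT NT replicate 1 there were 3, and without WT NT replicate 2 only Scn2b passed. The 10 changes stayed below 0 in each of these fits and in every other alternative run.

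Markers of other cell types moved in the same comparison. The 11 goblet cell markers summed to 10247 to 10474 CPM in WT ES, against 5057 to 5176 CPM in WT NT, and 10 of them rose. Paneth cell markers summed to 10717 to 11394 CPM in WT ES, against 8972 to 9019 CPM in WT NT, and 3 of 11 rose. Enteroendocrine markers summed to 269.5 to 289.7 CPM in WT ES, against 166 to 179 CPM in WT NT, and 4 of 11 rose. Absorptive enterocyte markers summed to 2393 to 2803 CPM in WT ES, against 1927 to 1931 CPM in WT NT, and 2 of 13 rose. The part of these markers in the fall of the core genes was not tested.

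In KO mice, ES was followed by no called change of a core gene. Of the 10 genes 0 passed with edgeR, 3 had an unadjusted p under 0.05, and DESeq2 and limma-voom called 0 as well. Over all tested genes 0.513% were called, 0.415% higher and 0.0979% lower, and 1493 of 17364 had an unadjusted p under 0.05. The median log2 fold change of the 10 genes was -0.09.

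Lgr5 had 113 and 99.2 CPM in KO ES, against 131 and 119.8 CPM in KO NT, a change of -0.24 ± 0.08 (unadjusted p = 0.0116, adjusted p = 0.346). Msi1 had 65.7 and 62.6 CPM in KO ES, against 75.3 and 70.4 CPM in KO NT (-0.18 ± 0.07, adjusted p = 0.457). Slc12a2 had 1987 and 2020.2 CPM in KO ES, against 2193 and 2164 CPM in KO NT (-0.12 ± 0.05, adjusted p = 0.542). These were the 3 genes with an unadjusted p under 0.05, and their KO ES libraries lay below their KO NT libraries.

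Ascl2 had 30.3 and 30.4 CPM in KO ES, against 35.2 and 28.3 CPM in KO NT. The KO ES pair lay between the 2 KO NT libraries (-0.07 ± 0.10, adjusted p = 0.948). Scn2b had 93.4 and 91.8 CPM in KO ES, against 99.4 and 84.9 CPM in KO NT, again with the KO ES pair inside the KO NT range (0.01 ± 0.08, adjusted p = 0.995). Changes of the other genes were -0.13 ± 0.08 for Rgmb, -0.10 ± 0.07 for Olfm4, -0.09 ± 0.06 for Cdca7, 0.02 ± 0.06 for Smoc2 and 0.01 ± 0.15 for Tnfrsf19. KO ES and KO NT did not overlap for 4 of the 10 genes, and nothing is read from this count without the share over all tested genes. The median change depended on the KO NT library used: it was -0.01 without KO NT replicate 1 and -0.21 without KO NT replicate 2, with 0 calls in both fits.

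Markers of other cell types moved with ES in KO as well. Goblet markers summed to 4398 to 4437 CPM in KO ES, against 2580 to 2647 CPM in KO NT, and 9 of 11 rose. Paneth markers summed to 11262 to 11666 CPM in KO ES, against 7071 to 8927 CPM in KO NT, and 6 of 11 rose. Absorptive enterocyte markers summed to 1586 to 1733 CPM in KO ES, against 1759 to 2395 CPM in KO NT, and 4 of 13 fell. Their part in the values of the core genes was not tested.

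**Figure D2:**
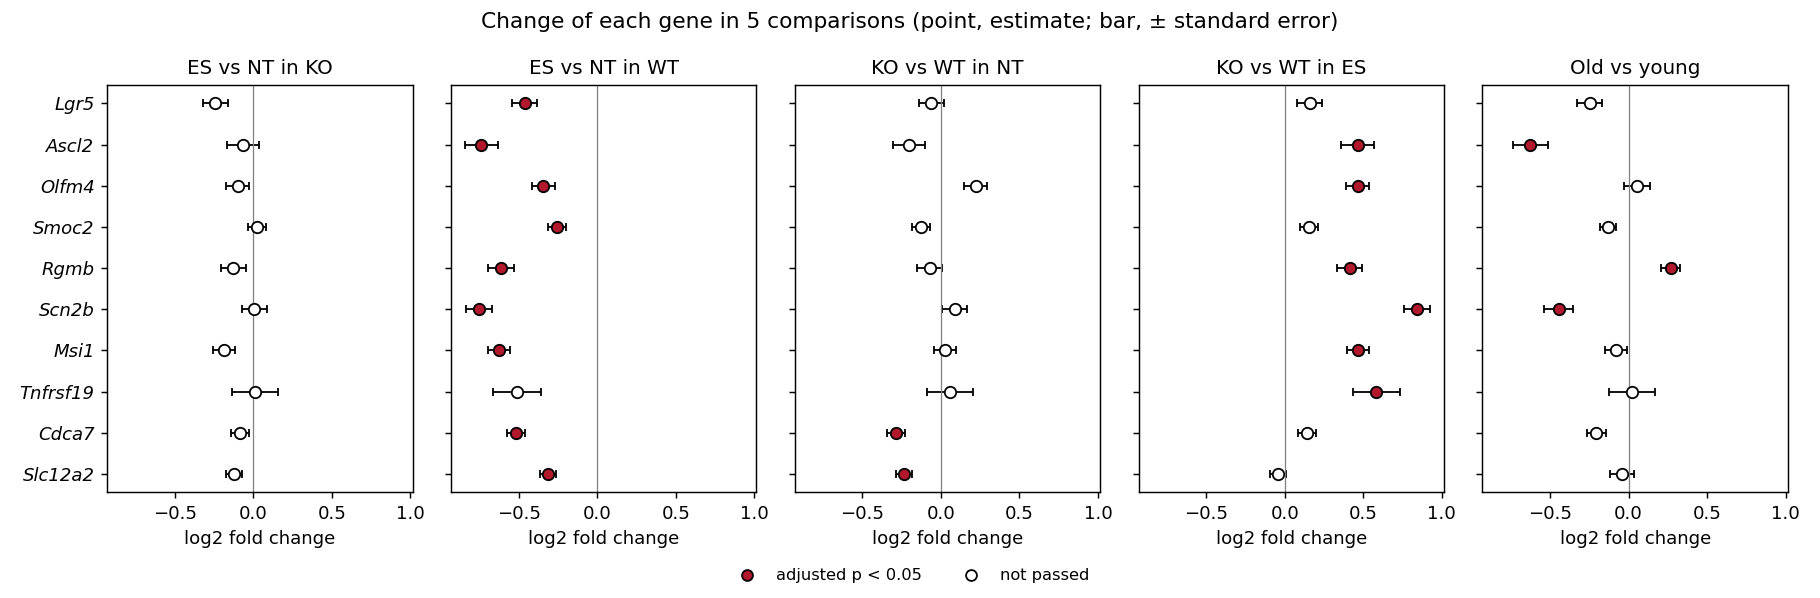
Log2 fold change of each gene in 5 comparisons (x axis), with bars of ± 1 standard error. Filled points passed at an adjusted p under 0.05: 0 genes for ES in KO, 9 for ES in WT, 2 for KO in NT, 6 for KO under ES and 3 for old mice.

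The genotypes were compared next, with and without ES. Under ES, 6 of the 10 genes were higher in KO than in WT and none was lower. This comparison and the fall with ES in WT rest on the same WT ES libraries, so they are not separate results. Over all tested genes 7.56% were called, and 3.09% were called higher. KO ES and WT ES libraries did not overlap for any of the 10 genes, a count again without the share over all tested genes. The median log2 fold change of the 10 genes was 0.44.

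Scn2b differed most, with 93.4 and 91.8 CPM in KO ES, against 50.0 and 53.4 CPM in WT ES (0.84 ± 0.08, adjusted p = 0.000257). Ascl2 had 30.3 and 30.4 CPM in KO ES, against 22.1 and 21.9 CPM in WT ES (0.47 ± 0.11, adjusted p = 0.0243). Olfm4 had 11585 and 10878 CPM in KO ES, against 8317 and 7975 CPM in WT ES (0.46 ± 0.07, adjusted p = 0.00412). For these 3 genes both KO ES libraries exceeded both WT ES libraries.

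Msi1 was higher by 0.47 ± 0.07 (adjusted p = 0.00356), with 65.7 and 62.6 CPM in KO ES, against 47.4 and 45.5 CPM in WT ES. Rgmb was higher by 0.41 ± 0.08 (adjusted p = 0.0119), with 256 and 241 CPM in KO ES, against 197 and 176 CPM in WT ES. Tnfrsf19 was higher by 0.58 ± 0.15 (adjusted p = 0.0429), with 40.2 and 34.8 CPM in KO ES, against 25.9 and 24.0 CPM in WT ES. The 4 genes that did not pass had changes that were 0.16 ± 0.08 for Lgr5, 0.15 ± 0.06 for Smoc2, 0.14 ± 0.06 for Cdca7 and -0.04 ± 0.05 for Slc12a2. Lgr5, the gene that defines the sort, was thus not among the genes called. Olfm4, Scn2b and Msi1 passed whichever of the 8 libraries was left out, and 3 calls in all remained without WT ES replicate 2 or without KO ES replicate 1.

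In NT mice, edgeR called 2 of the 10 genes lower in KO than in WT and none higher. Over all tested genes 4.47% were called, 2.11% lower and 2.36% higher. Cdca7 had 385 and 361 CPM in KO NT, against 458 and 453 CPM in WT NT (-0.29 ± 0.06, adjusted p = 0.0173). Slc12a2 had 2193 and 2164 CPM in KO NT, against 2526 and 2609 CPM in WT NT (-0.24 ± 0.05, adjusted p = 0.0277). Both KO NT libraries were below both WT NT libraries for these 2 genes, and 0 calls remained without either WT NT library. DESeq2, and edgeR without KO NT replicate 2, called Olfm4 higher in KO. In the fit to all libraries Olfm4 (0.22 ± 0.07, adjusted p = 0.130), Ascl2 (-0.20 ± 0.10, adjusted p = 0.329) and Smoc2 (-0.13 ± 0.06, adjusted p = 0.271) did not pass. The changes of Lgr5, Rgmb, Scn2b, Msi1 and Tnfrsf19 were closer to 0.

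Both genotype comparisons came with lower goblet marker levels in KO. Goblet markers summed to 4398 to 4437 CPM in KO ES, against 10247 to 10474 CPM in WT ES, and to 2580 to 2647 CPM in KO NT, against 5057 to 5176 CPM in WT NT. In each comparison 10 of the 11 markers were lower. Tuft cell markers summed to 42.9 to 47.6 CPM in KO ES, against 83.8 to 87.3 CPM in WT ES, and to 30.8 to 37.3 CPM in KO NT, against 79.0 to 81.5 CPM in WT NT. Absorptive enterocyte markers summed to 1586 to 1733 CPM in KO ES, against 2393 to 2803 CPM in WT ES. Enteroendocrine markers summed to 158 to 171 CPM in KO ES, against 269.5 to 289.7 CPM in WT ES, and 8 of 11 were lower. In NT mice they summed to 125 to 144 CPM in KO NT, against 166 to 179 CPM in WT NT, and 2 of 11 were lower. Proliferation markers ran the other way, at 2700.0 to 2844 CPM in KO ES, against 2323 to 2484 CPM in WT ES, with 1 of 11 called higher. In NT mice they summed to 2766 to 2872 CPM in KO NT, against 2377 to 2405 CPM in WT NT, with 6 of 11 higher. Whether these markers bear on the higher core genes in KO ES was not tested.

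The 4 groups of the first experiment could be ordered for each gene. WT ES had the lowest mean for 9 of the 10 genes, and KO ES had the lowest mean for Slc12a2. For Lgr5 the order from low to high was WT ES, KO ES, KO NT and WT NT, and only the last pair of neighbours overlapped. Ascl2 had the same order, with an overlap between KO ES and KO NT. Scn2b and Tnfrsf19 were ordered WT ES, WT NT, KO NT and KO ES, and KO NT overlapped both of its neighbours. The lowest group did not overlap the next one for any gene, but the gap could be small. For Lgr5 WT ES reached 99.1 CPM and KO ES began at 99.2 CPM, and these groups did not differ by edgeR (adjusted p = 0.270). For Slc12a2 the change between KO ES and WT ES was -0.04 ± 0.05 (adjusted p = 0.677).

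The difference between the ES effects, KO minus WT, was tested directly. It was above 0 for all 10 genes, with a median of 0.43 on the log2 scale. The same WT ES libraries enter this difference, the fall with ES in WT and the comparison of KO ES with WT ES. With edgeR 9 of the 10 had an unadjusted p under 0.05, as did 1999 of all 17364 tested genes. After adjustment 1 of the 10 passed, against 5 with DESeq2 and 0 with limma-voom. Over all tested genes 0.109% were called, and 0.0115% were called higher. Scn2b was the gene that passed, with a difference of 0.76 ± 0.12 (adjusted p = 0.0475). The interaction was 0.67 ± 0.15 for Ascl2 (adjusted p = 0.133), 0.48 ± 0.11 for Rgmb (adjusted p = 0.149) and 0.44 ± 0.10 for Msi1 (adjusted p = 0.145). Cdca7 came closest among the rest, with 0.43 ± 0.08 (adjusted p = 0.0934). For Lgr5 the difference was 0.22 ± 0.11 (adjusted p = 0.506), so a smaller ES effect on Lgr5 in KO was not shown. Tnfrsf19, Smoc2, Olfm4 and Slc12a2 had differences of 0.53 ± 0.21, 0.28 ± 0.08, 0.24 ± 0.10 and 0.19 ± 0.07, none of which passed. This test changed with single libraries: 0 genes passed without any one of the WT libraries or KO ES libraries, and 7 passed without KO NT replicate 1.

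Age moved the core genes in both directions. In old mice 2 of the 10 genes fell, Ascl2 and Scn2b, and 1 rose, Rgmb. Of the 16807 genes tested for age, 7.84% were called, 4.42% higher and 3.42% lower. The median log2 fold change of the 10 genes was -0.10, and old and young libraries did not overlap for 6 of them. The share of all tested genes without overlap was not counted here either.

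Ascl2 had 22.5, 21.9 and 18.4 CPM in the old libraries, against 36.8, 31.5 and 28.9 CPM in the young ones. No old library reached the lowest young one, and the change was -0.62 ± 0.11 (adjusted p = 0.00579). Scn2b had 47.1, 46.4 and 58.6 CPM in old, against 64.0, 70.4 and 72.2 CPM in young (-0.44 ± 0.09, adjusted p = 0.0138). Rgmb had 282, 261 and 299 CPM in old, against 237, 227 and 236 CPM in young (0.27 ± 0.06, adjusted p = 0.0177). Here each old library was above each young one. Ascl2 passed whichever library was left out, Scn2b did not pass without old replicate 1 or young replicate 2, and Rgmb did not pass without old replicate 1, young replicate 1 or young replicate 2.

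Lgr5 had 83.3, 80.3 and 95.9 CPM in old, against 99.4, 97.7 and 111 CPM in young. The old libraries were lower without overlap, yet the change of -0.25 ± 0.08 did not pass (adjusted p = 0.0856). Cdca7 had 297, 279 and 326 CPM in old, against 347, 337 and 356 CPM in young (-0.21 ± 0.06, adjusted p = 0.0706). Lgr5 and Cdca7 both passed without old replicate 3, which was the highest old library for 9 of the 10 genes and the lowest for Ascl2. Smoc2 had 266 to 285 CPM in old, against 293 to 304 CPM in young (-0.13 ± 0.05, adjusted p = 0.161).

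Olfm4 had 9986, 9034 and 11673 CPM in old, against 9793, 9763 and 10028 CPM in young, and the old libraries enclosed the young ones (0.05 ± 0.08, adjusted p = 0.788). Slc12a2, at 1737 to 2149.7 CPM in old, against 1912 to 2121 CPM in young, showed the same pattern (-0.04 ± 0.08, adjusted p = 0.827). Msi1 had 60.7 to 70.3 CPM in old, against 69.1 to 72.1 CPM in young (-0.08 ± 0.07, adjusted p = 0.594). Tnfrsf19 had 27.8 to 44.6 CPM in old, against 31.4 to 36.5 CPM in young (0.02 ± 0.14, adjusted p = 0.958). For these 4 genes the spread of the old libraries was wider than the gap between the group means.

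Among the cell type marker lists, lymphocyte markers had the largest median log2 fold change in old, at 2.30. Whether these RNAs came from other cells in the sorted pool was not tested. The 9 lymphocyte markers summed to 161 to 199 CPM in old, against 31.8 to 46.2 CPM in young, and all 9 rose. Tuft cell markers summed to 85.8 to 89.3 CPM in old, against 152 to 189 CPM in young, and 5 of 7 tested fell. Enteroendocrine markers summed to 352 to 511 CPM in old, against 245 to 275 CPM in young, and 6 of 11 rose. Goblet markers summed to 8802 to 9237 CPM in old, against 6698 to 7970.5 CPM in young, with 3 of 11 higher and 3 lower. Paneth markers summed to 8367 to 10787 CPM in old, against 10258 to 10788 CPM in young, and 4 of 11 fell. The part of these markers in the changes of Ascl2, Scn2b and Rgmb was not tested.

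**Figure D3:**
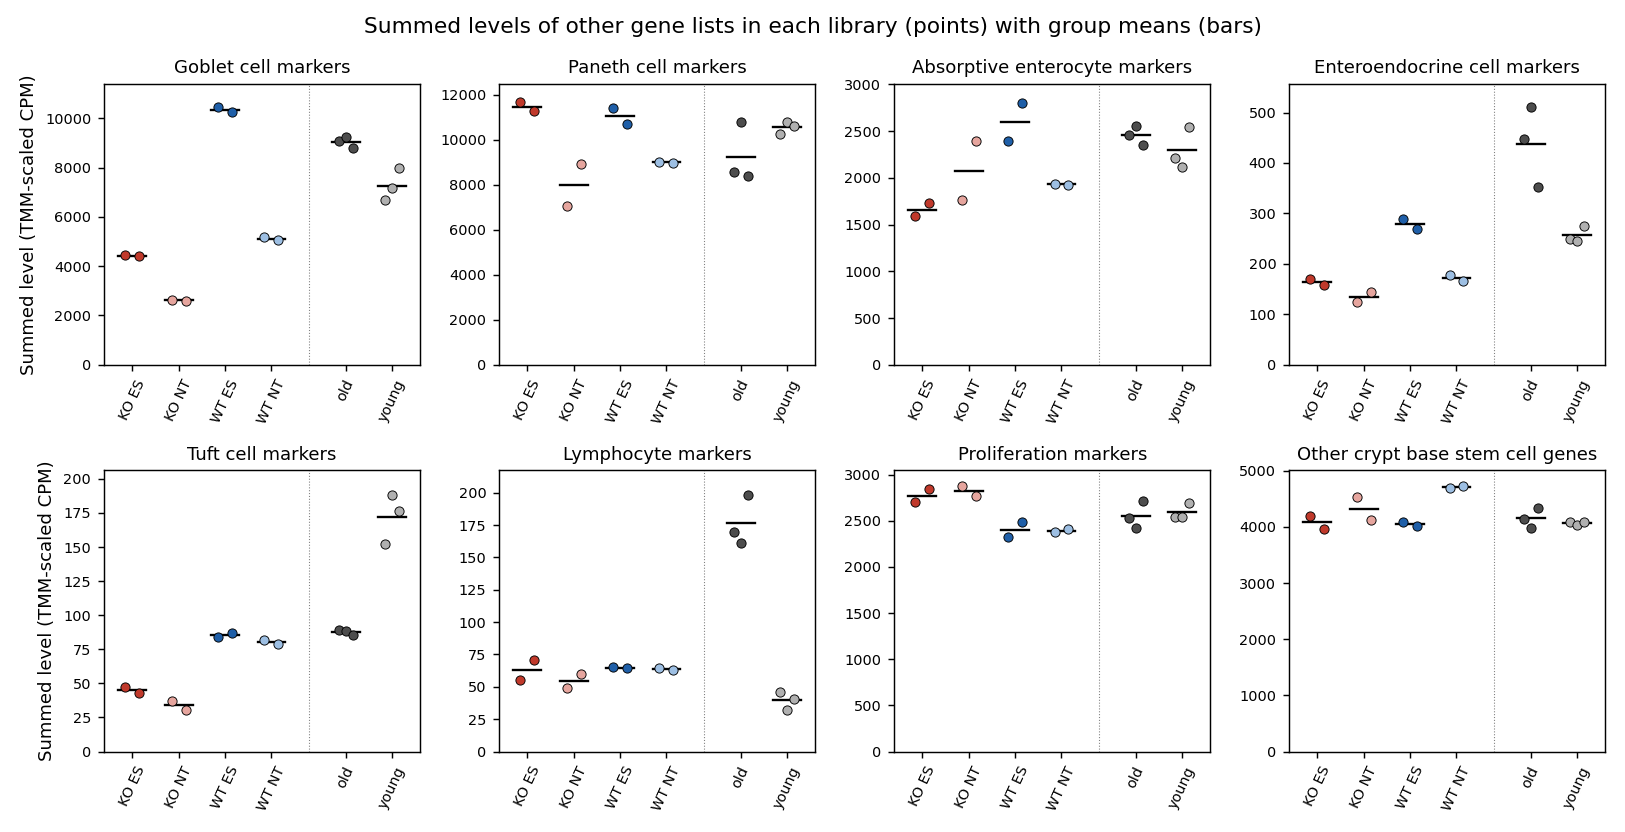
Summed CPM of 8 gene lists in every library (points), with group means (bars), in the order KO ES, KO NT, WT ES, WT NT, old and young. Goblet marker sums stand highest in WT ES, at 10247 to 10474 CPM, and lymphocyte marker sums highest in old, at 161 to 199 CPM.

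The 2 experiments shared no library, so the change with ES in WT and the change with age can be set side by side. Ascl2 (-0.74 ± 0.10 with ES in WT, -0.62 ± 0.11 in old) and Scn2b (-0.75 ± 0.08 with ES in WT, -0.44 ± 0.09 in old) fell in both. Rgmb fell with ES in WT (-0.61 ± 0.08) and rose in old (0.27 ± 0.06). The other 6 genes that fell with ES in WT did not pass in old. A difference between the 2 effects was not tested, because the tables were scaled and fitted separately.

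**Figure D4:**
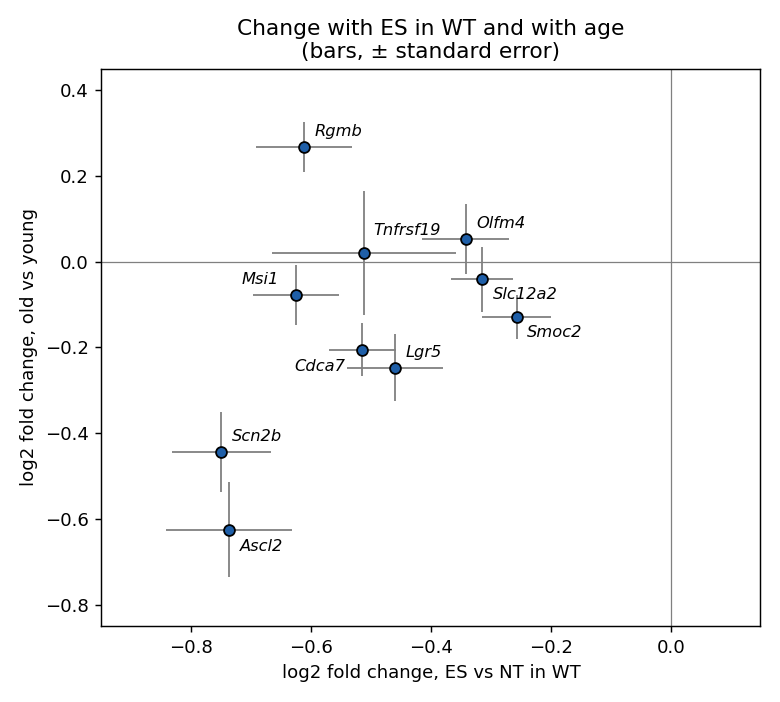
Log2 fold change of each gene with ES in WT (x axis) against its log2 fold change in old mice (y axis), with bars of ± 1 standard error. All 10 points lie left of 0 on the x axis; Ascl2 and Scn2b lie lowest on the y axis and Rgmb, at 0.27, lies highest.

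Other genes named as crypt base markers were counted in the same way. Of 29 such genes, 9 fell and none rose with ES in WT, with a median log2 fold change of -0.28. Axin2, a Wnt target and negative regulator of the pathway, averaged 277 ± 4.52 CPM in WT ES and 409 ± 9.03 CPM in WT NT (SD, n = 2 each; log2 fold change -0.56 ± 0.06, adjusted p = 0.00181). Kcne3, a potassium channel subunit, changed by -0.52 ± 0.07, Igfbp4 by -0.59 ± 0.09 and Gkn3 by -0.65 ± 0.11. With ES in KO 0 of the 29 were called by edgeR, DESeq2 called 2 and limma-voom called 0. An unadjusted edgeR p under 0.05 was seen for 9 of them and for 1493 of all 17364 tested genes. Under ES, Axin2 was higher in KO than in WT (0.34 ± 0.06), and Aqp4 (-0.48 ± 0.09) and Vdr (-0.33 ± 0.06) were lower. Both comparisons of Axin2 rest on the same WT ES libraries.

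In old mice 5 of the 29 fell and 3 rose. Kcne3 averaged 172 ± 4.02 CPM in old and 233 ± 1.33 CPM in young (SD, n = 3 each; -0.43 ± 0.05, adjusted p = 0.000402). Nrn1 changed by -0.91 ± 0.13 and Pdgfa by -0.53 ± 0.09. Vdr, the vitamin D receptor, rose by 0.29 ± 0.05. Kcne3 and Igfbp4 were the 2 genes of the list that fell both with ES in WT and in old.

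A list of R-spondin and Wnt receptor genes was counted too. It also holds genes that act inside the cell in Wnt signalling, such as Ctnnb1, Apc, Axin1 and Tcf7. Lgr4, the related R-spondin receptor, lay between 203 and 229 CPM in the first experiment and passed in no comparison. Its change with ES in WT was 0.01 ± 0.06 (adjusted p = 0.951). Lgr6 and the R-spondin genes Rspo1, Rspo2, Rspo3 and Rspo4 reached at most 0.242 CPM in any library. Of the 16 tested genes of this list edgeR called 1 with ES in WT, the Wnt receptor gene Fzd7, which fell (-0.54 ± 0.09, adjusted p = 0.0114). DESeq2 called 2 of the list, and edgeR called 3.48% of all tested genes. Fzd7 also fell in old (-0.33 ± 0.09, adjusted p = 0.0449), where the co-receptor gene Lrp6 rose (0.28 ± 0.06, adjusted p = 0.0156). These were the 2 calls among 15 tested in old, where 7.84% of all tested genes were called. Nothing about the list as a whole is read from these counts.

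Family relatives of the core genes were at low levels or were not called with ES in WT. Olfm1, Olfm2, Smoc1, Rgma, Scn3b and Scn4b reached at most 2.62 CPM in any library. Msi2 (82.3 to 101 CPM), Cdca7l (72.6 to 81.8 CPM) and Slc12a7 (153 to 175 CPM) were well measured. Of the 8 relatives tested, 0 were called with ES in WT by edgeR, DESeq2 called 1 and limma-voom called 0. An unadjusted edgeR p under 0.05 was seen for 2 of them and for 3225 of all 17364 tested genes. Under ES, edgeR called 1 of the 8 relatives lower in KO than in WT, where 7.56% of all tested genes were called. In old it called Rgma lower (-2.19 ± 0.56, adjusted p = 0.0362), at means of only 0.155 CPM in old and 0.735 CPM in young. For age 7.84% of all tested genes were called.

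Genes with the most similar pattern were sought for 3 core genes by Pearson correlation of log2 CPM, taken over the 8 libraries of the first experiment and the 6 of the second, and ranked by the smaller of the 2 values among 10175 genes. For Lgr5 they were Nav1 (r = 0.963 and 0.967), Plxnb1 (r = 0.981 and 0.947), Rnf2, Fbxo21 and Ankrd27. For Ascl2 they were Ephb4 (r = 0.932 and 0.941), Kcnn4 (r = 0.938 and 0.931), Zbtb39, Tomm5 and Kcne3. Olfm4 was closest to Cstf2 (r = 0.951 and 0.969), Vprbp, Dhx9, Tnfrsf19 (r = 0.909 and 0.946) and Rfc2. Libraries of a group share their condition, so these values describe group differences as well as differences between replicates. Tnfrsf19 was the only core gene among the closest genes of these 3, and the other core genes were not searched.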

How the data were processed

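Polyadenylated RNA from EGFP-sorted intestinal stem cells was sequenced from strand-specific TruSeq libraries, per the labels' protocols. The authors deposited raw counts per Ensembl gene in 2 tables, with no normalization. The submitters' processing notes name mm10 and FastQC 0.11.2, while the aligner and how reads were counted are not stated there. Columns named Ctrl were read as NT.

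Each table was analysed separately in edgeR 4.0.16 (filterByExpr, TMM scaling, quasi-likelihood fit with one mean per group over all libraries of the table). P-values were adjusted over all 17364 or 16807 tested genes by Benjamini-Hochberg, at a threshold of 0.05. Levels are TMM-scaled CPM. The ± after a log2 fold change is an approximate standard error from the F statistic, and ± after a level is the SD.

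The 10 genes and all lists were chosen with earlier results of these data known. All 10 genes are given in full; from each list, up to 4 passing genes with the smallest p are named per comparison, and a few list genes are not reported here. Tested on simulated counts, the fit recovered 79.1% of 1.5-fold changes for ES in WT and 77.6% for age. Genes above a minimum level were changed by 1.5-, 2- or 4-fold, and 6.09% and 5.67% of all calls together were false. Changes smaller than 1.5-fold, such as that of Lgr5 with ES in WT, were not simulated. Alternatives were relative log expression (RLE) scaling, no count filter, a filter at 1 CPM, DESeq2 1.42.0, limma-voom (limma 3.58.1), the older quasi-likelihood form, a replicate block, the 2 groups compared alone, thresholds of 0.1 and 0.01, and each library left out. Sequences and coordinates came from RefSeq and GENCODE tables read in Python 3.11.15.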

Additional observations from a re-analysis of the deposited data

Results flagged for a closer look

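The change of Scn2b with ES differed between the genotypes by a direct test of the difference, KO minus WT, which was 0.76 ± 0.12 on the log2 scale (edgeR quasi-likelihood test, adjusted p = 0.0475). The change was 0.01 ± 0.08 in KO and -0.75 ± 0.08 in WT. Scn2b averaged 92.6 ± 1.09 CPM in KO ES and 92.2 ± 10.3 CPM in KO NT, against 51.7 ± 2.40 CPM in WT ES and 86.8 ± 2.93 CPM in WT NT (SD, n = 2 each). The difference was above 0 in every alternative run, between 0.63 and 0.88 with 1 library left out. It passed without either KO NT library (the smaller adjusted p was 0.00118), and did not pass with any of the other 6 left out (largest adjusted p = 0.340). Over the other settings the adjusted p ran between 2.06e-05 with DESeq2 and 0.318 without a count filter.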

How the results depend on the processing

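With 2 or 3 libraries per group, calls near the threshold moved with single libraries, and where 1 library was left alone in its group it was assumed to vary like the others. The cause of each move was not tested. Of the core genes, 9 passed for ES in WT; without a count filter 5 passed, at an adjusted p under 0.01 5 passed, and with 1 library left out 1 to 10 passed. For ES in KO 0 passed under every alternative. For KO against WT in NT 2 passed; 1 passed without a count filter, with the 1 CPM filter or with only the 2 groups compared, 0 passed at 0.01, and 0 to 3 passed with 1 library left out. For KO against WT in ES 6 passed; 3 passed without a count filter, 3 at 0.01, and 3 to 6 with 1 library left out. For the difference of the ES effects 1 passed; 0 passed with RLE factors, without a count filter, with limma-voom, with the older quasi-likelihood form or at 0.01, 2 passed at 0.1, 5 passed with DESeq2, and 0 to 7 with 1 library left out. For old against young 3 passed; 1 passed without a count filter or at 0.01, 5 passed with DESeq2 or at 0.1, and 1 to 5 with 1 library left out.

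Same-numbered libraries did not deviate together throughout (correlations between -0.045 and 0.32), and the labels name no pairs, so the numbers were not taken as pairs. The value of 0.32 was that of KO ES with KO NT. With 2 libraries per group the deviations in a group mirror each other, so this check cannot exclude pairs. With the replicate block, 3 genes passed for the difference of the ES effects, 5 for old against young, and 3 for KO against WT in NT, where Olfm4 was added as higher, as it was with DESeq2.

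All genes called moved by more than 1.5 times as follows. For ES in WT there were 605; without a count filter 114, with DESeq2 1028, with the replicate block 970, with the 2 groups alone 1875, and with 1 library left out 23 to 1209. For ES in KO there were 89; the same alternatives gave 8, 226, 206, 24, and 11 to 278. For KO against WT in NT there were 776, without a count filter 317, and 145 to 848 with 1 library left out. For KO against WT in ES there were 1312, without a count filter 593, and 375 to 1936 with 1 library left out. The difference had 19, without a count filter 0, with DESeq2 211, with limma-voom 8, with the older form 11, with the replicate block 104, and 0 to 363 with 1 library left out. Old against young had 1318, without a count filter 666, with the replicate block 2019, and 636 to 1485 with 1 library left out.

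Changes that turned sign were all uncalled and near 0 in the fit to all libraries, but some moved well away from 0 with single libraries. With 1 library left out, ES in KO ran between -0.0227 and 0.0666 for Smoc2, -0.108 and 0.125 for Scn2b, -0.225 and 0.298 for Tnfrsf19, and -0.219 and 0.101 for Ascl2. KO against WT in NT ran between -0.0249 and 0.0852 for Msi1, -0.226 and 0.305 for Tnfrsf19, -0.0315 and 0.209 for Scn2b, -0.125 and 0.0157 for Lgr5, and -0.181 and 0.0446 for Rgmb. Old against young ran between -0.186 and 0.160 for Tnfrsf19, -0.124 and 0.0237 for Slc12a2, and -0.0491 and 0.131 for Olfm4. With limma-voom the change of Tnfrsf19 in old was -0.00844.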

Other observations

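Genes of the cell cycle split within the comparison in which the core genes fell. With ES in WT, 3 of 11 proliferation markers fell, Mcm2, Mcm4 and Mcm6 of the replication helicase, and 4 rose, Plk1, Cdc20, Ccnb1 and Tpx2 of mitosis. Mcm4 averaged 133 ± 0.888 CPM in WT ES and 171 ± 0.230 CPM in WT NT, and Plk1 averaged 83.3 ± 2.04 CPM in WT ES and 62.4 ± 1.68 CPM in WT NT (SD, n = 2 each). The log2 fold changes were -0.37 ± 0.06 for Mcm4 (edgeR adjusted p = 0.0106) and 0.42 ± 0.07 for Plk1 (adjusted p = 0.00990). The summed level of the list was 2323 to 2484 CPM in WT ES, against 2377 to 2405 CPM in WT NT. In KO mice 0 of the 11 were called with ES by edgeR, DESeq2 or limma-voom. An unadjusted edgeR p under 0.05 was seen for 2 of them and for 1493 of all 17364 tested genes.

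Of 7 tested genes linked to reserve or injury-induced stem cells, 2 fell with ES in WT. They were Mex3a (-0.55 ± 0.11, adjusted p = 0.0271) and Hopx (-0.33 ± 0.07, adjusted p = 0.0271). Mex3a is also in the list of other crypt base genes and was counted there too. Over all tested genes 3.48% were called with ES in WT. In old mice 0 of the 7 were called by edgeR, DESeq2 called 2 and limma-voom called 0. An unadjusted edgeR p under 0.05 was seen for 3 of them and for 3619 of all 16807 tested genes.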
